A study of Mus musculus with 8 samples.

Results

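Mitochondrial ribosomal protein genes are the nuclear genes for the protein part of the ribosome inside mitochondria. They were compared between ventricles in which Rps19bp1 was targeted for deletion in cardiomyocytes and control ventricles. The genes were taken by symbol, Mrps for the small subunit and Mrpl for the large subunit followed by a number and at most 1 letter from a to c, on the primary chromosomes. The rule used no measured value. It found 78 genes among the 52778 rows of the table, 29 with small-subunit and 49 with large-subunit symbols, spread over 17 chromosomes of GRCm38. Each of the 78 passed the filter on low values, a mean of at least 1 TPM (a length-corrected share of each library) over the 8 libraries. A further 8 rows with such symbols on alternate scaffolds were all listed at 0, and 6 pseudogene rows were not counted.

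The samples were ventricular heart tissue of mouse embryos at embryonic day 11.5, as 4 conditional knockout (cKO) and 4 control libraries, described by the submitters as biological replicates. The cKO embryos were Rps19bp1 fl/fl; Xmlc2-Cre +/−, so that floxed Rps19bp1, the gene of a nucleolar partner of the cytosolic ribosomal protein RPS19, was to be removed only where the Xmlc2 promoter drives Cre, in cardiomyocytes. Other cells of the ventricle keep the gene. The labels do not say whether the controls carried the floxed alleles or Cre, and the genotype field reads C57BL/6 WT for all 8 libraries. No treatment was given, and whether a library came from 1 embryo or from a pool is not stated. The labels conflict on the source of RNA and on the library type: one text names dissected ventricles and a stranded mRNA kit, another cultured cortical neurons and depletion of ribosomal RNA.

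Rps19bp1 itself (chr15:80260614-80264306, minus strand) measured 15.2, 11.8, 13.7 and 19.2 TPM in cKO replicates 1 to 4 and 40.9, 44.2, 34.7 and 40.05 TPM in control replicates 1 to 4. The groups did not overlap, and the mean in cKO, 14.96 ± 3.14 TPM (SD, n = 4), was 37.5% of that in control, 39.9 ± 3.93 TPM (limma, log2 change -1.37, SE 0.127, adjusted p = 0.000508). Which cells the remaining Rps19bp1 RNA came from was not measured. The tissue label was checked on summed markers. The 18 cardiomyocyte genes summed to 59415 to 62620 TPM in cKO and 59812 to 64971 TPM in control, and none of them was at 0 in all libraries.

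Mitochondria carry their own genome, which encodes a few subunits of the respiratory chain, and a separate ribosome to translate them. The ribosomal RNAs of that ribosome, 12S and 16S, come from the mitochondrial genome, while its proteins are encoded in the nucleus, made in the cytosol and imported. Some of these proteins have counterparts in bacterial ribosomes and others do not. Loss of this ribosome's function is a known cause of cardiomyopathy. How far the embryonic heart at this stage depends on it was not measured.

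Across the 8 libraries most of these genes had similar levels. Their mean levels over the 8 libraries ran from 10.25 TPM for Mrpl17 to 280.8 TPM for Mrpl12, a 27.4-fold range, but 46 of the 78 lay between 50 and 100 TPM. The median was 67.5 TPM for small-subunit and 65.01 TPM for large-subunit genes. The tails were mostly large-subunit genes: 11 of the 13 genes above 100 TPM and 9 of the 11 genes under 30 TPM.

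Mrpl12, the stalk protein that helps bring translation factors to the ribosome, was the most abundant, at 298.4 ± 10.7 TPM in control and 263.2 ± 19.3 TPM in cKO (SD, n = 4 each). Its 4 cKO values, 281.6, 275.1, 238.5 and 257.8 TPM, were below the control values of 293.5, 309.8, 286.0 and 304.2 TPM, but the change did not pass the test over all genes (limma, log2 change -0.18, adjusted p = 0.0956). Mrpl42 and Mrpl54 followed among large-subunit genes, with means over the 8 libraries of 225 and 174 TPM. Among small-subunit genes Mrps21 (155.8 TPM), Mrps15 (105 TPM) and Mrps36 (89.6 TPM) were the most abundant. The protein of Mrps36 is now known as a subunit of the 2-oxoglutarate dehydrogenase complex, a metabolic enzyme, rather than of the ribosome.

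At the low end stood Mrpl17, Mrpl35 (15.8 TPM) and Mrpl1 (16.3 TPM) of the large subunit and Mrps25 (15.5 TPM), Mrps14 (20.9 TPM) and Mrps11 (33.6 TPM) of the small subunit. None of these 6 passed the test. Their log2 changes lay between -0.12 for Mrpl1 (limma, adjusted p = 0.458) and 0.03 for Mrps25 (limma, adjusted p = 0.874).

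Replicates were close for most of these genes. The median coefficient of variation within a group was 6.29%, and 68 of the 78 genes were under 10%. The genes with the widest spread were Mrpl39, at 28.2%, Mrpl48, at 25.3%, and Mrpl42, at 19.4%, all of the large subunit. Of the 78 genes, 25 overlap the row of another gene, and reads there could be assigned to either, so their levels are uncertain. Those described here are Mrpl14, Mrpl18, Mrpl27, Mrpl33, Mrpl48, Mrpl49, Mrpl57, Mrps2, Mrps7, Mrps18a, Mrps18b and Mrps25.

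**Figure D1:**
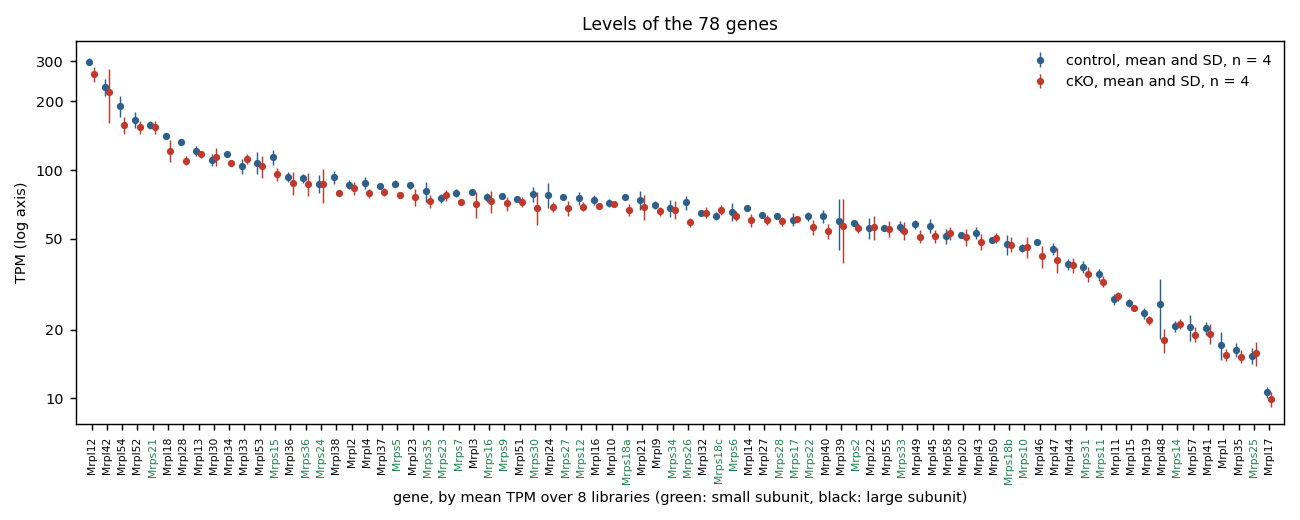
Levels of the 78 genes in TPM on a log axis, ordered by their mean over the 8 libraries, with the mean and SD (n = 4) of control and cKO side by side. Most genes sit between 50 and 100 TPM, with Mrpl17 lowest and Mrpl12 highest.

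Between the groups the genes were slightly lower in cKO, and few passed a test one by one. Of the 78 genes, 64 had a lower and 14 a higher mean log2 value in cKO, so that 82.1% were lower, against 55.8% of the 15541 rows tested. The median log2 change was -0.09, against -0.02 over all rows tested and -0.04 over the 9651 rows at least as abundant as the lowest of these genes. Single changes ran from -0.46 to 0.11.

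After adjustment over all rows tested, 4 of the 78 genes passed the threshold of 0.05, each lower in cKO: Mrps26 and Mrps15 of the small subunit and Mrpl28 and Mrpl38 of the large subunit. That is 5.13% of the genes, and 6.4% of all rows passed in either direction and 4.23% were lower. At an unadjusted p under 0.05 there were 21 genes, each lower, 7 of the small and 14 of the large subunit. This made 26.9% of the genes, against 15.4% of all rows lower in cKO at that threshold. In 14 genes every cKO library was below every control library and in none was it the reverse. That was 17.9% of the genes, against 10.3% of all rows without overlap and lower in cKO. The 9651 rows at least as abundant as the lowest of these genes lie closer to them: 62.4% were lower, 8.06% passed in either direction and 5.78% were lower past the threshold. Among those rows 20.2% were lower at an unadjusted p under 0.05, and 13.5% were lower without overlap.

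**Figure D2:**
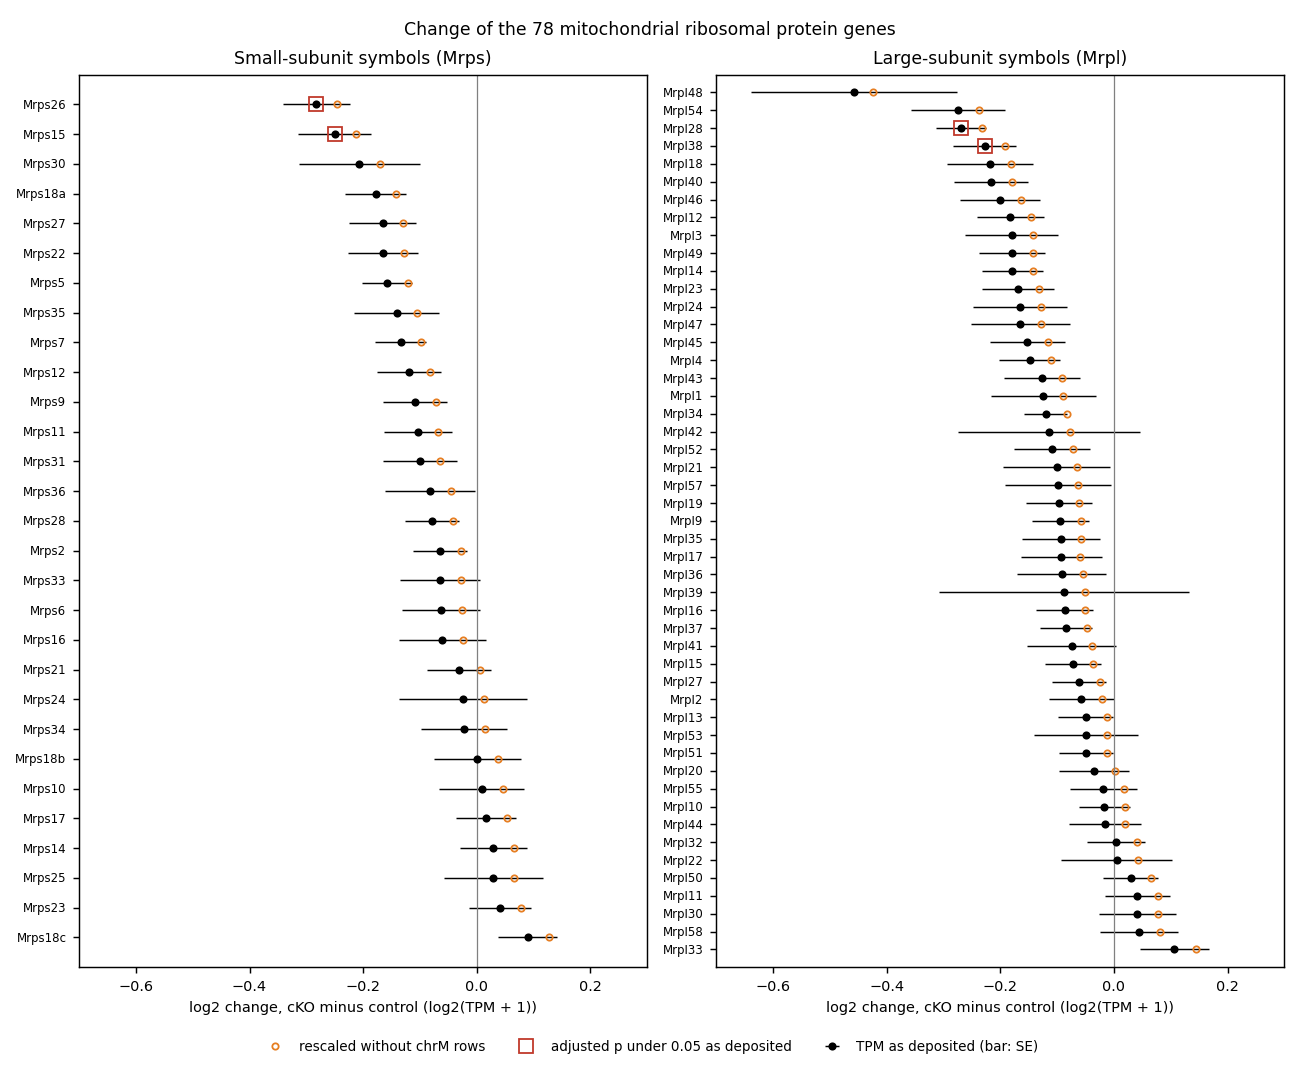
Log2 change, cKO minus control on log2(TPM + 1), of each small-subunit (left) and large-subunit (right) gene, as deposited (filled points, bars are the SE) and after rescaling without the mitochondrial chromosome (open points). Squares mark the 4 genes with an adjusted p under 0.05 as deposited, and the open points lie to the right of the filled ones throughout.

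These values are shares of each library's total, and the mitochondrial chromosome took a larger share in cKO. Its 37 rows made up 13.21, 13.24, 16.17 and 14.12% of TPM in cKO replicates 1 to 4 and 12.14, 12.2, 12.0 and 11.43% in control replicates 1 to 4. The groups did not overlap, at 14.2% ± 1.39 in cKO and 11.9% ± 0.350 in control (SD, n = 4 each, exact two-sided permutation p = 0.0286, the smallest that 4 against 4 libraries can give). A larger share of these rows lowers every other TPM by construction, so the values were also rescaled to the same total without them.

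After this rescaling the median log2 change of the 78 genes was -0.06, with 57 lower and 21 higher, while the median over all rows moved to 0.01 and the share of lower rows to 46.9%. Mrpl28 was the 1 gene still past the threshold. On that scale 4.9% of all rows passed in either direction and 2.4% were lower. At an unadjusted p under 0.05, 17 genes were lower, 21.8% against 10.7% of all rows, and 2 were higher, Mrpl33 and Mrps18c. The groups did not overlap, with cKO lower, in 12 genes, 15.4% against 7.11% of all rows. Among rows at least as abundant as the lowest of these genes, 51.4% were lower after rescaling, 13.7% at an unadjusted p under 0.05 and 9.23% without overlap. The direction of the calls over all genes depended on this scaling too: 66.2% of the 994 rows called as deposited were lower in cKO, and 48.9% of the 760 called after rescaling.

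**Figure D3:**
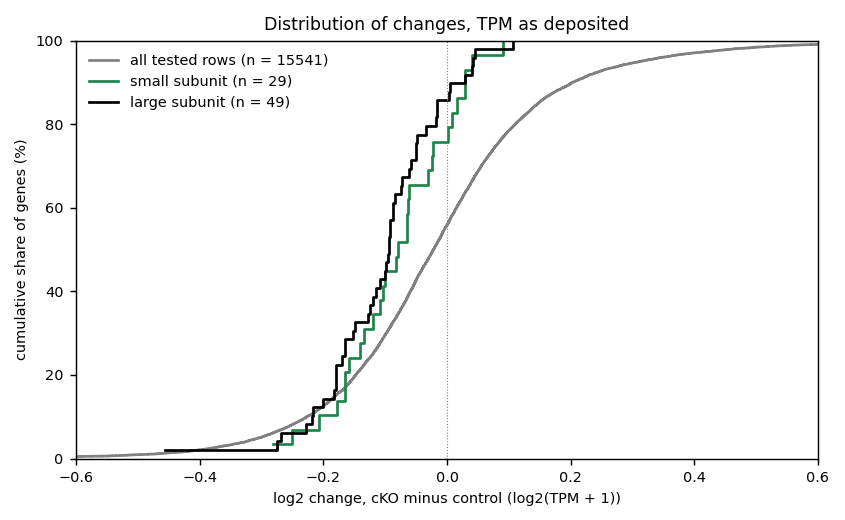
Cumulative share of genes (%) by log2 change, cKO minus control, for the small-subunit genes, the large-subunit genes and all rows tested. Both subunits' curves lie to the left of the curve of all rows around and above their medians of -0.08, -0.09 and -0.02, and at the low end they meet or cross it.

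The summed level tells the same per library. The 78 genes together made up 5652, 5545, 5104 and 5470 TPM in cKO replicates 1 to 4 and 5886, 5894, 5743 and 5884 TPM in control replicates 1 to 4. Every cKO library was below every control library, with a mean of 5442 ± 238 against 5852 ± 72.7 TPM (SD, n = 4 each). Rescaled without the mitochondrial chromosome the sums were 6340 ± 179 in cKO and 6646 ± 85.1 in control, and the groups still did not overlap. In bulk tissue, fewer cells of a type and less RNA per cell cannot be told apart.

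Replicate 3 of cKO was the lowest of the 8 libraries. There, 71 of the 78 genes were below the control mean, against 49, 53 and 56 in the other cKO libraries and 33 to 51 in single control libraries. The median distance of the genes from the control mean was -0.19 in that library and -0.08 to -0.07 in the other 3 cKO libraries, on the log2 scale. It was also the library with the largest mitochondrial share. Without it, the median log2 change of the 78 genes was -0.07 and the summed difference was -296.8 TPM, instead of -409.6 TPM.

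The 29 small-subunit genes had a median log2 change of -0.08 (22 lower, 7 higher) and the 49 large-subunit genes one of -0.09 (42 lower, 7 higher). Summed small-subunit genes measured 1904, 1890, 1814 and 1920 TPM in cKO and 1991, 2051, 1992 and 1983 TPM in control, and summed large-subunit genes 3748, 3654, 3289 and 3549 TPM in cKO and 3895, 3843, 3752 and 3902 TPM in control. Neither sum overlapped between the groups, though the large-subunit sums of cKO replicate 1 and control replicate 3 were nearly equal. After rescaling, the small-subunit sums still did not overlap (2193 ± 31.0 in cKO, 2276 ± 41.8 in control, SD, n = 4 each), while the large-subunit sums did (4147 ± 166.9 and 4370 ± 74.5).

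The ratio of small-subunit to large-subunit TPM, which no common scaling can move, overlapped between the groups. It was 0.5079, 0.5172, 0.5515 and 0.5411 in cKO and 0.5112, 0.5336, 0.5308 and 0.5082 in control, with means of 0.529 ± 0.0203 and 0.521 ± 0.0131 (SD, n = 4 each). The difference of 0.00845 was smaller than the spread within either group.

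**Figure D4:**
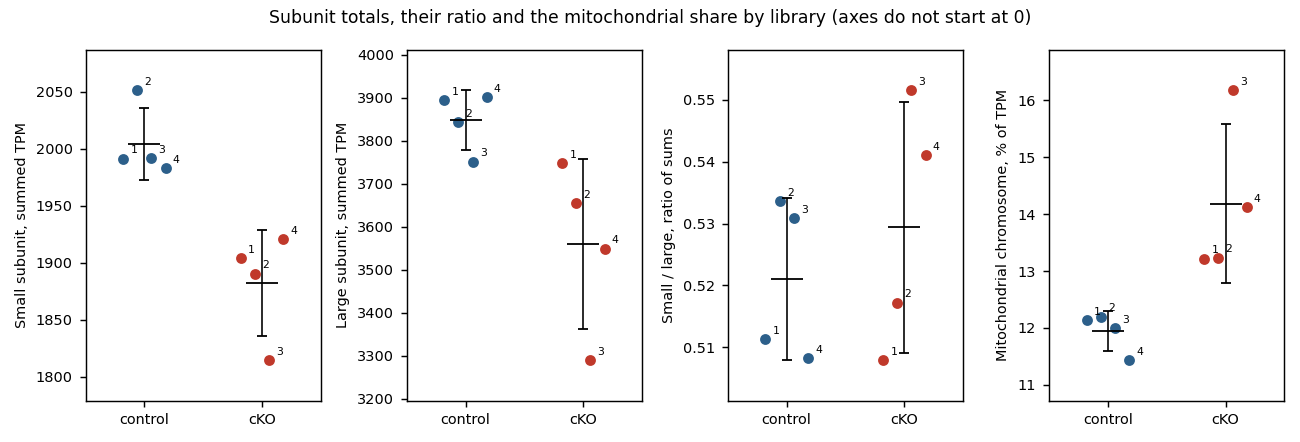
Summed TPM of the small-subunit and large-subunit genes, their ratio and the share of TPM on the mitochondrial chromosome, 1 point per library, with the mean and SD of each group (n = 4); axes do not start at 0. Both sums lie lower in cKO without overlap, the ratio overlaps, and the mitochondrial share lies higher in cKO.

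Some symbols do not match the place of the protein. Mrps18a and Mrps30 belong to the large subunit, and Mrps36 to neither. With these moved, the 26 small-subunit genes had a median log2 change of -0.06 and the 51 large-subunit genes one of -0.10, and the ratio of summed levels, 0.4495 ± 0.0150 in cKO and 0.4393 ± 0.0107 in control (SD, n = 4 each), again overlapped.

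The 3 paralogs of bacterial S18 stood apart from each other. Mrps18a was lower in each cKO library than in any control library, at 67.07 ± 4.08 against 75.9 ± 2.34 TPM (SD, n = 4; limma, log2 change -0.18, adjusted p = 0.0774). Mrps18b, whose protein sits in the small subunit, measured 47.2 ± 3.52 and 47.2 ± 4.67 TPM. Mrps18c, which takes the place of S18 in the small subunit, measured 66.97 ± 3.53 TPM in cKO and 62.9 ± 2.56 TPM in control (limma, log2 change 0.09, adjusted p = 0.331). None of the 3 passed the test, and the differences between them were not tested.

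Genes with and without bacterial counterparts were also set side by side. Among small-subunit genes the 15 with a counterpart had a median log2 change of -0.06 and the 9 without one of -0.10. Among large-subunit genes the 28 with a counterpart had a median of -0.09 and the 16 without one of -0.12, of which 15 were lower. These differences between classes were not tested.

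Mrpl28, of the large subunit and with a counterpart in bacteria, had the smallest p. It measured 110.7, 116.4, 104.8 and 108.0 TPM in cKO and 131.2, 134.8, 131.0 and 133.6 TPM in control. The highest cKO library was below the lowest control library, and the mean fell from 132.6 ± 1.84 to 110 ± 4.93 TPM (SD, n = 4 each), to 82.9% of control (limma, log2 change -0.27, SE 0.0442, adjusted p = 0.00964). After rescaling the change was -0.23 (limma, adjusted p = 0.013). It passed in each of the 18 alternative fits, those without 1 library included, with adjusted p from 0.0093 to 0.0374.

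Mrps26, a small-subunit protein with no bacterial counterpart, measured 58.4, 56.1, 59.3 and 62.4 TPM in cKO and 74.9, 77.1, 70.9 and 65.6 TPM in control. Without overlap, the means were 59.06 ± 2.63 against 72.1 ± 5.04 TPM (SD, n = 4; limma, log2 change -0.28, SE 0.0589, adjusted p = 0.0247). Rescaled, the adjusted p was 0.0514. It also missed the threshold without cKO replicate 1 (limma, adjusted p = 0.0643), 2 (0.0544) or 3 (0.0576) and without control replicate 1 (0.0699), 2 (0.0631) or 3 (0.0616).

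Mrps15, the counterpart of bacterial S15, measured 94.0, 91.9, 92.4 and 104.8 TPM in cKO and 108.8, 125.5, 106.1 and 116.3 TPM in control. The groups did not overlap as deposited, at 95.8 ± 6.07 against 114.2 ± 8.72 TPM (SD, n = 4; limma, log2 change -0.25, SE 0.0646, adjusted p = 0.0489). They overlapped once rescaled, where the adjusted p was 0.0865. It kept its call without cKO replicate 4 (limma, adjusted p = 0.0299) and lost it without cKO replicate 1 (0.1107), 2 (0.09959) or 3 (0.1108) and without control replicate 1 (0.0775), 2 (0.1099), 3 (0.06713) or 4 (0.1007).

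Mrpl38, a large-subunit protein with no bacterial counterpart (chr11:116131817-116138868, minus strand), measured 82.6, 79.0, 76.0 and 79.7 TPM in cKO and 85.6, 99.0, 91.1 and 97.0 TPM in control. There was no overlap, at 79.3 ± 2.69 against 93.2 ± 6.08 TPM (SD, n = 4; limma, log2 change -0.23, SE 0.0547, adjusted p = 0.0385). Rescaled, the adjusted p was 0.0632. The call held without control replicate 1 (limma, adjusted p = 0.03419) and was lost without cKO replicate 1 (0.06457), 2 (0.0739), 3 (0.09014) or 4 (0.06105) and without control replicate 2 (0.09605), 3 (0.08243) or 4 (0.08886).

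The bases just before the annotated starts of 3 of these 4 genes are shown because they are the regulatory sequence closest to the genes that passed the test. They are from RefSeq on GRCm38.p6, each 100 bases on the plus strand, which is the strand of the genes, and end at the base before the start. Capitals mark CCAAT, the box bound by NF-Y, on either strand, and CCGGAAGT, a core bound by ETS factors such as GABPA, on either strand.
Mrpl28, chr17:26123403-26123502: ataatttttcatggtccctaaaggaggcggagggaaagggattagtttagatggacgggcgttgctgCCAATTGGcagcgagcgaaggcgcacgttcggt
Mrps26, chr2:130563657-130563756: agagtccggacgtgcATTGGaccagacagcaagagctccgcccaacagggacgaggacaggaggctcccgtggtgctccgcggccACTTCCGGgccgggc
Mrps15, chr4:126046828-126046927: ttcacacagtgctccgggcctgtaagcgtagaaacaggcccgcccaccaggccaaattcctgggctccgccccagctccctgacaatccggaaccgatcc
Mrpl28 has CCAAT on both strands, overlapping, and no ETS core in this window. Mrps26 has CCAAT and the ETS core, both on the reverse strand. Mrps15 has none of the motifs searched in these 100 bases. No motif of the set was thus in all 3 of these windows, while in the 300 bases used for the counts given last, which run past the start, Mrps15 has CCAAT too, on the reverse strand.

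**Figure D5:**
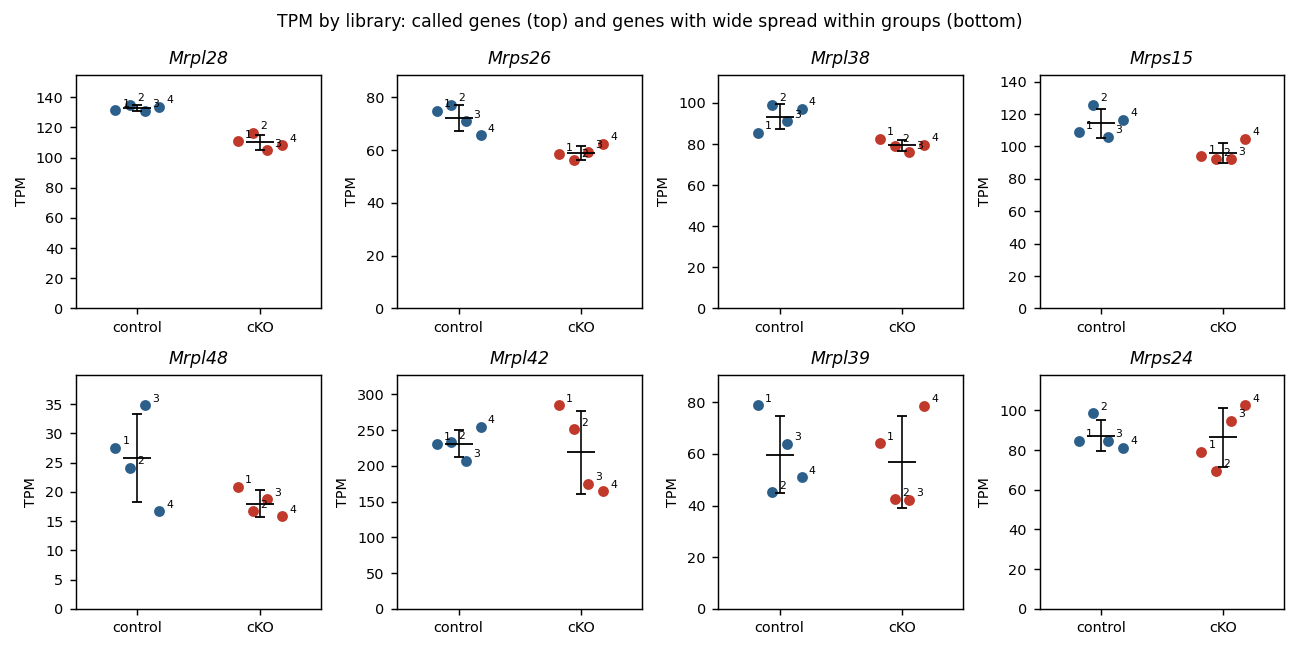
TPM by library in control and cKO for the 4 genes past the threshold (top) and for Mrpl48, Mrpl42, Mrpl39 and Mrps24, which spread widely within groups (bottom), 1 point per library with the group mean and SD (n = 4); axes start at 0. In the top row no cKO point reaches a control point, while in the bottom row the groups overlap.

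Next in order of p came genes whose groups did not overlap but whose adjusted p missed the threshold. Mrps5, a counterpart of bacterial S5, measured 77.9 ± 2.45 TPM in cKO and 87.05 ± 2.99 TPM in control (SD, n = 4; limma, log2 change -0.16, adjusted p = 0.0653). Mrpl14, a counterpart of bacterial L14, measured 60.3 ± 3.96 and 68.3 ± 1.61 TPM (limma, log2 change -0.18, adjusted p = 0.0785). The others without overlap, beside Mrps18a and Mrpl12, were Mrps7, Mrpl18, Mrpl23, Mrpl34, Mrpl40 and Mrpl49.

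Mrpl54 averaged 157.3 ± 13.2 TPM in cKO and 190.9 ± 19.98 TPM in control (SD, n = 4; limma, log2 change -0.27, adjusted p = 0.0789). Its change was about as large as that of Mrpl28 with a wider spread. Mrpl34, with the narrowest spread of those named here, a within-group coefficient of variation of 1.55%, measured 108.0, 106.3, 106.5 and 110.4 TPM in cKO and 116.9, 115.4, 119.1 and 117.5 TPM in control. The groups were well apart, but its log2 change of -0.12 had an adjusted p of 0.0911 (limma). After rescaling Mrpl34 stood at -0.08 (limma, adjusted p = 0.225) and Mrpl54 at -0.24 (limma, adjusted p = 0.121). The rescaled adjusted p was also larger for Mrps5 (limma, 0.132), Mrpl14 (0.122), Mrps18a (0.12) and Mrpl12 (0.135).

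The lowest fitted value belonged to Mrpl48, at -0.46 (SE 0.181; limma, adjusted p = 0.162). It measured 20.8, 16.6, 18.7 and 15.8 TPM in cKO and 27.5, 24.1, 34.8 and 16.7 TPM in control. Control replicate 4 lay within the cKO range. Without that library the change was -0.64 (limma, adjusted p = 0.0327). This was the 1 fit of the 18 alternatives in which Mrpl48 passed, and the adjusted p reached 0.37 in others. After rescaling the change was -0.42 (limma, adjusted p = 0.209). The gene is one of those that overlap other rows, here Cox20b and Rab6a.

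Mrpl42 and Mrpl39 varied more among libraries of 1 group than between groups. Mrpl42 measured 284.7, 250.9, 174.8 and 164.5 TPM in cKO and 230.5, 233.0, 207.1 and 254.5 TPM in control (limma, log2 change -0.11, adjusted p = 0.711). Mrpl39 measured 64.1, 42.5, 42.2 and 78.6 TPM in cKO and 78.8, 45.1, 63.9 and 50.9 TPM in control (limma, log2 change -0.09, adjusted p = 0.85). Of the cKO values of Mrpl42, replicate 1 lay above its control range, replicates 3 and 4 below it and replicate 2 within it, and those of Mrpl39 spanned nearly all of it.

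Mrps30, a large-subunit protein despite its symbol, measured 56.3, 61.6, 76.6 and 79.5 TPM in cKO and 79.8, 85.9, 76.4 and 72.2 TPM in control. The groups overlapped through cKO replicates 3 and 4 (limma, log2 change -0.21, adjusted p = 0.273). Mrps36 measured 87.2 ± 10.3 and 91.9 ± 3.98 TPM (SD, n = 4; limma, log2 change -0.08, adjusted p = 0.578) and Mrps21 154.2 ± 10.5 and 157.3 ± 5.95 TPM (log2 change -0.03). The highest positive value was that of Mrpl33, 0.11 (limma, adjusted p = 0.328).

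Proteins of this ribosome, or bound to it, whose symbols fall outside the rule were read from a list of their own. Oxa1l is the inner-membrane insertase that binds the ribosome. The list's 6 genes, Gadd45gip1, Chchd1, Oxa1l, Dap3, Ptcd3 and Aurkaip1, were each lower in mean, and 1 passed the test, 16.7% against 6.4% of all rows. Gadd45gip1, a large-subunit protein at the exit of the nascent chain, fell from 68.2 ± 3.96 to 57.5 ± 3.48 TPM (SD, n = 4; limma, log2 change -0.24, adjusted p = 0.0393). The call was lost after rescaling (adjusted p = 0.072) and held in 5 of the 18 alternative fits. Among the fits that left out 1 library it held without cKO replicate 4 (limma, adjusted p = 0.02547) and was lost without each of the other libraries, with adjusted p from 0.05469 to 0.0978. Chchd1, of the small subunit, stood at -0.13 on the log2 scale (limma, adjusted p = 0.0905).

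Neither mitochondrial ribosomal RNA passed the test. The 12S RNA mt-Rnr1 measured 447.7, 481.1, 438.4 and 470.6 TPM in cKO and 375.1, 383.1, 410.5 and 468.1 TPM in control, with overlap (limma, log2 change 0.17, adjusted p = 0.18). The 16S RNA mt-Rnr2 measured 667.6, 771.8, 798.3 and 654.5 TPM in cKO and 740.7, 595.5, 749 and 784.8 TPM in control, also with overlap (limma, log2 change 0.01, adjusted p = 0.951). How well libraries prepared by either of the stated protocols count these RNAs is not known.

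A list of 33 genes, drawn up for factors that build this ribosome, had a median log2 change of -0.07. Of these, 27 were lower and 2 passed the threshold, 6.06%, close to the 6.4% of all rows. The list also holds Lyrm7, Pyurf and Mief1, whose place among such factors is uncertain, and Mief1 is counted in the translation list too. Mterf3, which acts in mitochondrial transcription and ribosome assembly, was higher in cKO, at 21.3, 21.4, 22.2 and 20.6 TPM against 17.6, 18.1, 16.1 and 18.2 TPM in control. The groups did not overlap (limma, log2 change 0.28, SE 0.0556, adjusted p = 0.0219), and after rescaling the adjusted p was 0.0166. It missed the threshold without cKO replicate 1 (limma, adjusted p = 0.05655) or 3 (0.05817) and without control replicate 1 (0.05451) or 3 (0.0592).

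Afg3l2, a subunit of the inner-membrane protease that matures the large-subunit protein MRPL32, was lower, at 87.3 ± 3.83 against 99.5 ± 1.59 TPM (SD, n = 4; limma, log2 change -0.19, adjusted p = 0.0383). The call was lost after rescaling (adjusted p = 0.0967) and in each fit that left out 1 library (0.05257 to 0.1028). Its substrate's gene Mrpl32 had a log2 change of 0.00.

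The list of 19 genes for translation in mitochondria holds factors of initiation, elongation and release. It also holds Mief1, Taco1, Mtres1, Rmnd1, Mtpap, Mss51, Metap1d and Pdf, which are none of these. Its median log2 change was -0.06, with 13 lower, 6 higher and 0 past the threshold. With limma, 3 had an unadjusted p under 0.05, 15.8% against 23.7% of all rows. The smallest p belonged to Gfm1, the elongation factor that moves the ribosome along, at -0.15 (limma, adjusted p = 0.109), and Mtfmt, which formylates the initiator tRNA, at -0.17 (limma, adjusted p = 0.15).

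Among 24 genes for mitochondrial transcription and RNA processing, 17 were lower and 7 higher, with a median of -0.06, and 1 passed, 4.17% against 6.4% of all rows. Grsf1, an RNA-binding protein of mitochondrial RNA granules, fell from 114.1 ± 5.32 to 91.2 ± 7.77 TPM (SD, n = 4; limma, log2 change -0.32, SE 0.0642, adjusted p = 0.0215) and passed after rescaling too (adjusted p = 0.0396). It missed the threshold without cKO replicate 1 (limma, adjusted p = 0.05102) or 3 (0.05347) and without control replicate 1 (0.06147), 2 (0.05697) or 3 (0.053). Supv3l1, the helicase of the mitochondrial RNA degradosome, stood at -0.24 (limma, adjusted p = 0.0739).

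The 8 genes for replication of mitochondrial DNA had a median of -0.09 and 0 calls with limma, the closest being Mgme1, an exonuclease, at -0.29 (adjusted p = 0.0503). The 10 regulators of nuclear genes for mitochondria had a median of -0.07 and 0 calls with limma. Over all rows 6.4% passed, and lists of 8 or 10 genes may hold 0 calls at that share. Among the regulators Gabpa, the ETS factor named above, stood at -0.15 (adjusted p = 0.144) and the coactivator Ppargc1a at -0.13 (adjusted p = 0.223). Yy1 had the largest change, -0.45, with overlapping groups (SE 0.221, limma, adjusted p = 0.246). Nrf1 stood at -0.10 (limma, adjusted p = 0.474).

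Marker genes of other cells of the ventricle differed between the same libraries. The 9 mesenchymal markers summed to 925 to 1122 TPM in cKO and 696 to 849 TPM in control, with 4 higher and 1 lower past the threshold. That was 55.6% of the list, against 6.4% of all rows in either direction. The 7 epicardial markers summed to 331 to 424 and 274 to 304 TPM, with 4 higher, 57.1% of the list. The 9 endothelial markers summed to 797 to 902 and 746 to 794 TPM, with 0 past it. These 3 sums did not overlap between the groups.

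The 12 proliferation genes summed to 1006 to 1197 TPM in cKO and 1390 to 1544 TPM in control, without overlap. Of these, 10 were lower past the threshold, 83.3% of the list against 4.23% of all rows. The 11 erythroid markers (2110 to 4484 and 2328 to 8439 TPM) and the 9 macrophage markers, of which 8 were tested (77.4 to 129 and 71.4 to 102 TPM) overlapped. So did the cardiomyocyte sums given above, in which abundant genes such as Actc1, with a mean of 14919 TPM, weigh most. Singly, 14 of the 18 were lower and 4 higher. Nkx2-5 alone was past the threshold, at 72.5% of control (limma, log2 change -0.48, adjusted p = 0.0453, rescaled 0.0742). That was 5.56% of the list, against 6.4% of all rows. As deposited, Nkx2-5, Myh6 and Tnni1 were lower and Nppa higher without overlap, 22.2% of the list against 15.6% of all rows. None of the markers in these lists was at 0 in all libraries. The part of these differences in the levels of the mitochondrial ribosomal protein genes was not tested.

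Many of these genes share their start region with a neighbour. Of the 78, 35 had the start of a gene on the opposite strand within 1000 bp. That was 44.9%, against 23.0% of the 15494 tested rows of the primary nuclear chromosomes. Some neighbours start before the gene and point away. Others, such as Rab6a beside Mrpl48 and Tmem63b beside Mrpl14, start inside the gene and run back over its start. In 31 of the 35 genes the neighbour has a gene name. Several neighbours are themselves mitochondrial, such as Ndufs6 beside Mrpl36 and Ndufb5 beside Mrpl47, subunits of complex I, and Sars2 beside Mrps12, the mitochondrial seryl-tRNA synthetase. Mrps11 and Mrpl46, 1 gene of each subunit, face away from each other with starts 42 bp apart.

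Of the 33 such neighbours tested, which include Mrps11 and Mrpl46 themselves, 5 passed the threshold, 15.2% against 6.4% of all rows, while the gene facing each of them did not. Ncapd2, a condensin subunit beside Mrpl51, fell by 0.30 on the log2 scale (limma, adjusted p = 0.0248), and Ska3, a kinetochore protein beside Mrpl57, fell by 0.37 (adjusted p = 0.029). Mtbp, beside Mrpl13, fell by 0.29 (adjusted p = 0.0257) and Eme1, a DNA repair nuclease subunit beside Mrpl27, by 0.28 (adjusted p = 0.0423). The fifth, 1700007K13Rik beside Mrps2, was higher by 1.21 (adjusted p = 0.0222). Its mean over the 8 libraries was 1.40 TPM, near the filter of 1 TPM. The log2 changes of Mrpl51, Mrpl57, Mrpl13, Mrpl27 and Mrps2 were -0.05, -0.10, -0.05, -0.06 and -0.06. Eme1, Ska3 and 1700007K13Rik overlap the genes they face, so their reads are uncertain.

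The sequence between Mrps11 and Mrpl46 is shown because a gene of each subunit starts from it, read on the plus strand toward Mrps11, and the region before Mrpl32 because it holds NRF1 letters more than once, read on the minus strand, the strand of that gene. NRF1 is a regulator of nuclear genes for mitochondria. Capitals mark GCATGCGC on either strand, and the longer NRF1 form, which has GC before it.
Mrpl46 to Mrps11, chr7:78783090-78783130: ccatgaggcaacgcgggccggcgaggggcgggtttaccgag
Mrpl32, chr13:14613038-14613137: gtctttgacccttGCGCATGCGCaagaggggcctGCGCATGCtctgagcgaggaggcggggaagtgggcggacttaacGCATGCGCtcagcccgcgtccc
The 41 bases between Mrpl46 and Mrps11 hold none of the motifs searched. Mrps11 stood at -0.10 on the log2 scale (limma, adjusted p = 0.335) and Mrpl46 at -0.20 (limma, adjusted p = 0.121). Mrpl32 carries the longer form once and the shorter form at further places, and its groups differed by less than their spread, with a log2 change of 0.00.

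RefSeq promoters, 250 bases before to 50 after the start, were found for 69 of the 78 genes. In 48 of these the start was that of the gene's row, and in the others the promoter with the nearest start was taken. Their motifs were counted on both strands and set beside 10908 promoters of tested genes. For those the first promoter listed for each gene was taken, so the 2 sets were not chosen alike. CCGGAAGT was in 11 (15.9% against 8.01%) and AANATGGCG, a YY1 motif, in 11 (15.9% against 5.20%). GCATGCGC was in 8 (11.6% against 5.25%), and 3 of those promoters hold the longer NRF1 form, with GC before it (4.35% against 1.99%).

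The more general letters were about as frequent as in other promoters. CCAAT was in 27 (39.1% against 38.9%), GGGGCGGGG, a GC box, in 13 (18.8% against 21.9%), CACGTG, an E-box, in 5 (7.25% against 10.3%). The letters TATAAA were in 4 (5.80% against 7.10%). The median log2 change was -0.13 for genes with CCGGAAGT and -0.09 for those without it, and -0.01 for genes with GCATGCGC and -0.10 for those without it. For AANATGGCG and for the longer NRF1 form both medians were -0.09. With and without the others they were -0.08 and -0.10 (CCAAT), -0.12 and -0.09 (GGGGCGGGG), -0.06 and -0.10 (CACGTG) and -0.06 and -0.09 (TATAAA). The differences were not tested. These matches describe letters in these windows and no binding was measured.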

How the data were processed

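RNA sequencing of embryonic ventricles, 4 cKO and 4 control libraries, was deposited as TPM per gene row. The authors made these TPM values; the submitters' processing notes name FastQC, Trim Galore 0.6.7, HISAT2 2.2.1, StringTie 2.2.1, featureCounts and GRCm38, with no order, and strand use in counting is not given in the sources used here. TPM keeps no depth, so no counting error can be given. Replicate numbers come from the titles, and all 8 libraries carry 1 batch label. The p-values measure the spread between these libraries.

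Rows with a mean of at least 1 TPM were tested on log2(TPM + 1) with limma 3.58.1 in R 4.3.3 (group as the single term, eBayes with a trend, two-sided, Benjamini-Hochberg over 15541 rows), and 15504 rows were tested after rescaling without the 37 rows of the mitochondrial chromosome. The pseudocount of 1 understates changes of low genes. The fit was tested on simulated data with the means and spread of these rows. It recovered 100% of rows changed by 1.5 on the log2 scale and 82% of those changed by 0.75. At 0.3 it recovered 34%, and at -0.3 it recovered 30%. With no change simulated, 0 rows were called. A gene that missed the threshold is therefore not shown to be unchanged. There were 18 alternative fits: pseudocounts of 0.1 and 5, no filter, a mean of at least 5 TPM, median-ratio scaling, quantile normalization, rescaling, no trend, array weights, a replicate block, and each of the 8 libraries left out.

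Coordinates matched RefSeq GRCm38.p6 for all 78 genes. Genes were named if past the threshold, by the 4 smallest p, 3 highest and 3 lowest levels of each subunit, and by the 3 widest spreads, with Mrps18a to Mrps18c, Mrps30, Mrps36 and, of other lists, genes past the threshold and the 2 smallest p. Mrpl32, Mrps24, Mrpl33, Mrpl34, Mrpl46, the 6 further genes listed without overlap, and the neighbours were named after their values were seen. So were Yy1, Nrf1 and the single cardiomyocyte markers. The genes and lists were chosen with earlier results of these data known. Bacterial counterparts were assigned from general knowledge, after the data were seen, leaving out uncertain genes.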

Additional observations from a re-analysis of the deposited data

Results flagged for a closer look

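Single libraries standing away from the other 3 of their group were looked for in 62 groups of 4 values (Dixon's test at the 95% level, which flags about 1 group in 20 by chance), and 3 were found. Mrps15 in cKO replicate 4 measured 104.8 TPM, against 91.94 to 93.96 TPM in the other cKO libraries. The summed level of the 78 genes in control replicate 3 was 5743 TPM, against 5884 to 5894 TPM in the other controls. The summed small-subunit level in control replicate 2 was 2051 TPM, against 1983 to 1992 TPM in the other controls.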

How the results depend on the processing

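Under the 18 alternative fits Mrpl28 and Rps19bp1 kept their direction and call in each. Of the 4 genes called, 2 remained called in number with median-ratio scaling or without the trend (1 small-subunit and 1 large-subunit gene), and 1 with no filter, quantile normalization, the replicate block or rescaling (0 and 1). With array weights 1 small-subunit gene was called. Leaving out 1 library gave 1 to 5 genes, 0 to 2 of the small and 1 to 3 of the large subunit. Genes outside the symbol rule gave 0 calls with median-ratio scaling, no filter, no trend, quantile normalization, the block or rescaling, and 0 to 1 without a library. The list of assembly factors gave 1 call with the same settings except the block (0), and 0 to 1 without a library. Transcription and RNA processing gave 0 with no filter or the block, and 0 to 2 without a library. Over all rows 347 were called with no filter, 609 without the trend, 420 with the block and 388 to 936 without a library, against 994. Of the calls, 66.2% were lower as deposited, 52.2% with median-ratio scaling and 49.8% with quantile normalization. The median change of the 78 genes was -0.043 and that of small-subunit genes -0.021 with quantile normalization; without a library they ranged from -0.11 to -0.07 for both. The ratio difference ranged from 0.00108 to 0.0156 without a library. The cause of these shifts was not tested. No named gene past the threshold changed sign in these fits. Genes near 0 did: Mrps21 was 0.035 with quantile normalization and 0.0063 after rescaling (-0.031 as deposited), and Mrps18b was -0.0029 with array weights (0.00089 without them). Leaving out 1 library gave -0.26 to 0.055 for Mrpl39, -0.25 to 0.0086 for Mrpl42, -0.0057 to 0.055 for Mrps14, -0.039 to 0.061 for Mrps18b, -0.060 to 0.0015 for Mrps21 and -0.034 to 0.096 for Mrps25, so these have no stable direction.

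Replicate numbers did not pair the libraries: deviations of same-numbered cKO and control libraries correlated at -0.0107, 0.0674, 0.0576 and -0.0891, so the replicate block is given here alone. TPM gives no depth, and with 4 libraries a group the exact test cannot go below 0.0286.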
